A study of Mus musculus with 4 samples.

Results

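The GIMAP genes (GTPases of immunity-associated proteins) encode a family of GTP-binding proteins found mainly in lymphocytes. The 8 members measured were Gimap1, Gimap3, Gimap4, Gimap5, Gimap6, Gimap7, Gimap8 and Gimap9, which made up 8 of the 31053 genes in each of the 2 deposited RNA matrices. The family was chosen by its measured levels across the cell gates of both libraries, and its members are the listed genes present in both matrices. Their levels are therefore given as a description, with no test.

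Many GIMAP proteins are anchored to the membranes of organelles inside the cell. In rodents the family is best known for the survival of lymphocytes: loss of Gimap5 in mice and rats leaves few peripheral T cells, and loss of Gimap1 in mice depletes mature T and B cells. Individual members have been tied to BCL2 family proteins, which set the threshold for cell death, and to the ATG8 proteins of autophagy.

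CD45-positive leukocytes came from tumours of B16, a transplantable mouse melanoma line, 12 days after its injection into the right flank of male C57BL/6 mice. The groups were mice labelled ATPIF1 knock-out (KO) and wild-type mice (WT), and both groups carried the same tumour line, sex, strain and time. ATPIF1 is a mitochondrial protein that inhibits ATP synthase. The allele and the age of the mice are not given in the labels, and the number of mice is given as n = 6 without saying whether per genotype. Tumours from all mice of 1 genotype were pooled, so that each genotype had 1 RNA library of the droplet-based 5′ kind and 1 T cell receptor (TCR) library. With 1 pooled library per genotype there was no replicate, no difference between genotypes could be tested, and all intervals below are 95% intervals that cover counting error only.

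Barcodes with at least 1000 unique molecular identifiers (UMIs, which count RNA molecules), at least 500 genes and at most 10% mitochondrial UMIs were kept, 3211 in the library labelled KO and 4370 in that labelled WT, with medians of 4266 and 4314.5 UMIs. Of these, 29 barcodes occurred in both libraries and were counted as separate cells. Lymphocytes were gated on marker UMIs. T cells were gated on Cd3 and TCR constant genes, CD8 T cells on Cd8a and Cd8b1, and cycling T cells on mitotic genes. CD4, Foxp3-positive, NK and B cells were gated on their own markers. CD8 T cells were split into checkpoint-positive (Pdcd1, Lag3, Havcr2 or Tigit), effector (at least 2 UMIs of cytotoxic genes, no checkpoint gene) and naive-like cells. Naive-like cells held no checkpoint UMI, at most 1 UMI of cytotoxic genes and at least 1 UMI of naive T cell markers. They were thus defined in part by absent UMIs, and their medians were 2328 (KO label) and 2787 UMIs (WT label). Those of checkpoint-positive cells were 3043.5 and 4046 UMIs. T cells without a Cd4, Cd8 or Foxp3 UMI or with an unclear mix were kept apart as other T cells. Levels are UMIs of a gene per 1000000 UMIs of the gate (CPM). Because a UMI marks 1 end of a molecule, levels of different genes were compared without division by length. Barcodes of 2 cells were limited only by excluding barcodes with markers of another lineage.

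The 8 lymphocyte gates held 597 cells in the library labelled KO and 659 in that labelled WT. The study's design text names a sort of CD45-positive T cells, but macrophages or monocytes made up 1208 of the kept barcodes in the library labelled KO and 1554 in that labelled WT. Genes that the gates did not use matched most names, though not throughout. Tox, a regulator of exhausted T cells, was at 149 CPM in the checkpoint-positive gate of the library labelled KO and 38.1 CPM (6 UMIs) in that labelled WT. In all other kept cells it was at 13.4 and 2.99 CPM. Ikzf2, a gene of regulatory T cells, was at 697 and 493 CPM in the Foxp3-positive gates, and Ebf1, a B cell factor, at 757 and 1101 CPM in the B gates. The NK gate of the library labelled KO held 10 cells, with Gzma at 39.8 CPM (2 UMIs) against 333 CPM in the 13 cells of that labelled WT, so that its name rests on few molecules. Some markers did not set their gate apart from all other kept cells. In the WT-labelled checkpoint-positive gate Tnfrsf9 was at 38.1 against 29.8 CPM and Bhlhe40 at 235 against 228 CPM. Id2 was lower in effector than in other cells (422 against 583 CPM and 390 against 501 CPM). Fcer1g and Tyrobp were lower in NK cells of both libraries, and H2-Aa in B cells of the library labelled KO. Atpif1 itself was at 205 CPM in all CD8 T cells of the KO-labelled library and 118 CPM in those labelled WT, and at 743 and 673 CPM in macrophages or monocytes, so it was no lower under the KO label. Molecules tagged at their 5′ end can still be counted where a deletion leaves that end in place, the allele is not described, and every KO over WT direction rests on the label alone.

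All 8 GIMAP genes lie in 1 cluster on chromosome 6, between positions 48647186 and 48770851 of GRCm38.p6, a span of 124 kb. Their order is Gimap8, Gimap9, Gimap4, Gimap6, Gimap7, Gimap1, Gimap5 and Gimap3. In the RefSeq annotation Gimap6 spans chr6:48701583-48708244, Gimap1 chr6:48739047-48743795, Gimap5 chr6:48746197-48754200 and Gimap3 chr6:48764464-48770851. Gimap3 and Gimap5 are close relatives, and RefSeq lists Gimap5 among the older names of Gimap3, so the authors' counting could split reads between them and the values of these 2 genes are uncertain.

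Promoter windows from RefSeq (GRCm38.p6), from 250 bases before to 50 bases after the start of a gene, were found for all 8 genes, 9 windows in all because Gimap8 has 2 starts. The windows of Gimap1 and Gimap6, whose transcripts were found in plasmacytoid dendritic cells (pDC), and of Gimap3 and Gimap4, which were at 0 there, are shown to set genes with and without UMIs in pDC side by side. In the pDC of the library labelled KO these zeros were not separable from the depth. Capitals mark the letters AGGAAG, a form of ETS site around the shorter core GGAA, and TGTGGT, the core of many RUNX sites. Both are marked on either strand (CTTCCT and ACCACA on the reverse strand), and other motifs searched may overlap them. GGAA with other letters beside it is not marked. Gimap1 is at chr6:48738797-48739096 (+), Gimap6 at chr6:48708195-48708494 (-), Gimap3 at chr6:48770802-48771101 (-) and Gimap4 at chr6:48684328-48684627 (+).
Gimap1: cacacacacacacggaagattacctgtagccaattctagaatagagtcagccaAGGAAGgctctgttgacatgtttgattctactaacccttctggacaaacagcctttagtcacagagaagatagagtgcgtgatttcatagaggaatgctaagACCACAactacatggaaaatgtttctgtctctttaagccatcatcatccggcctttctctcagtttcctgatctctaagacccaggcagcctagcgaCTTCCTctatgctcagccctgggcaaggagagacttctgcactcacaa
Gimap6: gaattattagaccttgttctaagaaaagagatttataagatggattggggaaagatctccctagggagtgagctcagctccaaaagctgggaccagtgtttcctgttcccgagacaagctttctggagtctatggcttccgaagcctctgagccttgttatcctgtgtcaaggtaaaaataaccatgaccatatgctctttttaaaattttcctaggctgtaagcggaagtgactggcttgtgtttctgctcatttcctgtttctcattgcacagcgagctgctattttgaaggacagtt
Gimap3: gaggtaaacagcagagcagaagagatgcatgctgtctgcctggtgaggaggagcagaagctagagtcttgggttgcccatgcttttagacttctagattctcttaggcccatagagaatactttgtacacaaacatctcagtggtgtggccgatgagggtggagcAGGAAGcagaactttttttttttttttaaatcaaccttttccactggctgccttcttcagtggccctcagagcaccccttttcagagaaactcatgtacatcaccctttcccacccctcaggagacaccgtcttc
Gimap4: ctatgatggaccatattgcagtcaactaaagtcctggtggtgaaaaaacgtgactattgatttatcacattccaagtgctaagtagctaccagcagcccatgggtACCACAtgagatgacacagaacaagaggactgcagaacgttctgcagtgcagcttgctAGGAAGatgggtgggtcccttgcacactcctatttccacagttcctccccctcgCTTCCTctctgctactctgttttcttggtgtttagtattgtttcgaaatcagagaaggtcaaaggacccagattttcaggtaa

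AGGAAG was in the windows of 7 of 8 GIMAP genes, and in 35.4% of 32851 windows of all genes. Gimap6 alone among the 8 held neither these exact letters nor those of RUNX. Its window does hold the shorter ETS core GGAA, as in gcggaagtg. The RUNX letters were in the windows of Gimap1, Gimap4 and Gimap7, 3 of 8 genes, and in 16.8% of all windows. The FOXO letters GTAAACA were in 1 window, that of Gimap3 (3.65% of all windows), the TCF/LEF letters CTTTGA in those of Gimap4 and Gimap7 (16.0%), and the E box CANNTG in those of 6 genes (72.3%). Neither the GATA letters AGATAA (11.2% of all windows) nor the IRF motif (3.44%) were in any GIMAP window. Both strands were searched for each. Such a match is a description of letters, not a site, and Gimap4, without UMIs in pDC, held both the ETS and the RUNX letters, as did Gimap1, which was found there.

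The first question was where the family is transcribed in these tumours. The GIMAP family, as the sum of the 8 genes, was at 1026 CPM (2446 UMIs) in the 8 lymphocyte gates of the library labelled KO and at 7.24 CPM (58 UMIs) in macrophages or monocytes, a 142-fold difference (109 to 187). In the library labelled WT the sums were 865 CPM (1785 UMIs) and 5.39 CPM (71 UMIs), a 160-fold difference (127 to 206). Each of the 8 members was at least 1.5-fold higher in the lymphocyte gates than in macrophages or monocytes in both libraries, a size that 28% of all genes measured reached in the library labelled KO and 25.5% in that labelled WT, and 0 were lower (27.7% and 33.8%). Neutrophils held 0 GIMAP UMIs in the library labelled KO, which allows up to 10.4 CPM, and 6.10 CPM in that labelled WT. Type 1 conventional dendritic cells (cDC1) held 3.38 and 1.82 CPM, and melanoma cells 7.86 and 0.372 CPM, from at most 6 UMIs each.

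Between these levels stood the pDC, dendritic cells that make type I interferon. Their GIMAP family sum was 66.8 CPM (10 UMIs in 27 cells) in the library labelled KO and 50.6 CPM (33 UMIs in 106 cells) in that labelled WT. This was 9.23-fold (4.21 to 18.2) and 9.38-fold (6.01 to 14.4) the level of macrophages or monocytes of the same library. Free RNA from broken cells sets the level that cells without the transcripts can reach: empty droplets (10 to 100 UMIs) held 317 and 135 CPM of GIMAP transcripts, but macrophages or monocytes held 58 and 71 UMIs where the share of free RNA read from melanoma and haemoglobin genes would give 161 and 88.9. By the same estimate free RNA would give 15.3 of the 1241 GIMAP UMIs of all CD8 T cells in the library labelled KO and 2.81 of the 838 in that labelled WT.

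**Figure D1:**
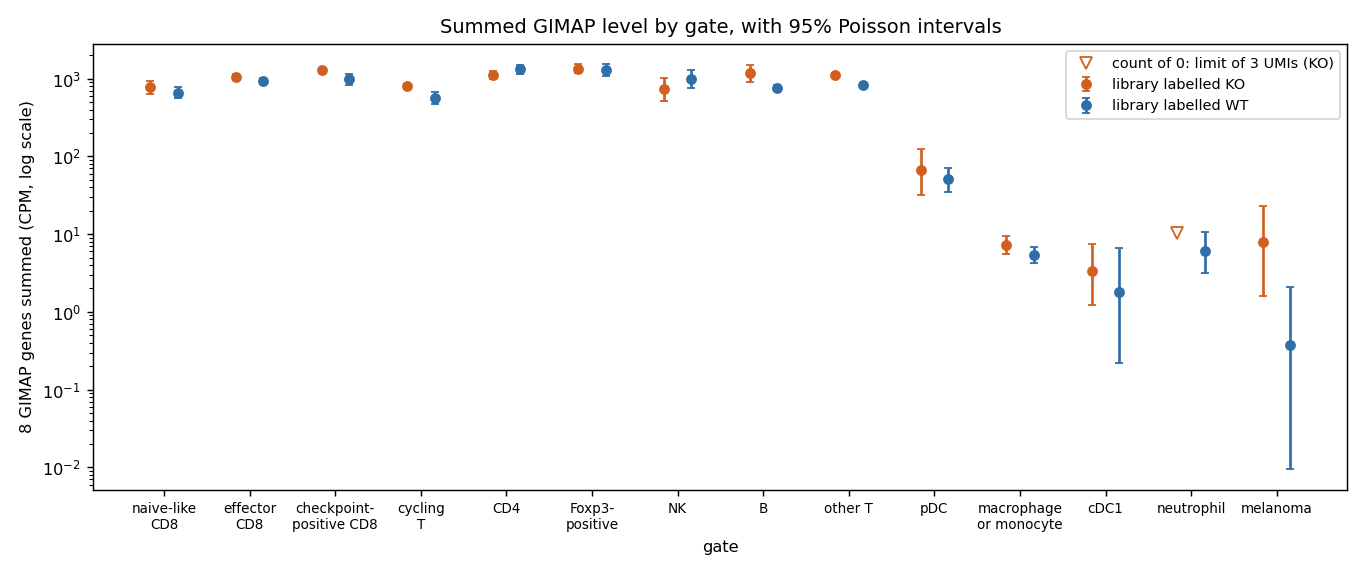
Summed level of the 8 GIMAP genes (CPM, log scale) in each gate of the library labelled KO (left point of each pair) and labelled WT (right point), with 95% Poisson intervals; the open triangle marks the limit that a count of 0 allows. The lymphocyte gates sit between 561 and 1348 CPM, pDC at 66.8 and 50.6 CPM, and macrophages or monocytes at 7.24 and 5.39 CPM.

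Single cells showed the same division. To compare cells of unequal depth, each cell was thinned to 1000 UMIs. A UMI of any GIMAP gene was then found in 62.9% of CD8 T cells in the library labelled KO and 59.4% of those labelled WT, against 0.993% and 0.579% of macrophages or monocytes and 11.1% and 5.66% of pDC. Before thinning the shares were 89.3% and 89.8% of CD8 T cells (medians 2636 and 3179.5 UMIs), against 3.15% and 2.90% of macrophages or monocytes (5817 and 7449.5 UMIs). A CD8 T cell held UMIs of 2.38 and 2.35 different members on average before thinning, and at most 8. Thinned B cells of the library labelled KO held a GIMAP UMI in 72.7% (54.5 to 86.7), against 52.4% (46.5 to 58.2) in that labelled WT. CD4 cells had the opposite order, with 57.3% (46.8 to 67.3) in the library labelled KO and 77.4% (63.8 to 87.7) in that labelled WT.

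Among the lymphocyte gates the GIMAP family sum varied little beside its distance from myeloid cells. In the library labelled KO the order from low to high was NK (737 CPM), naive-like CD8 (777), cycling T (796), effector CD8 (1043), CD4 (1112), B (1178), checkpoint-positive CD8 (1281) and Foxp3-positive cells (1348). Of the neighbours in that order, effector CD8 over cycling T alone had an interval clear of 0, at a log2 difference of 0.39 (0.22 to 0.56). In the library labelled WT the order was cycling T (561 CPM), naive-like CD8 (658), B (758), effector CD8 (940), checkpoint-positive CD8 (990), NK (998), Foxp3-positive (1287) and CD4 cells (1317), and effector CD8 over B was the one neighbouring pair clear of 0 (0.31, 0.13 to 0.50). Foxp3-positive cells were thus near the top and naive-like and cycling cells near the bottom of both libraries. B and CD4 cells changed places between the libraries, though under the KO label they differed by no more than counting error (0.08, -0.32 to 0.46). NK cells were lowest under the KO label but not under the WT label.

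The single genes were ordered differently among the gates. Gimap3, which in mice affects how mitochondrial DNA variants segregate in blood tissues, was highest in Foxp3-positive cells, at 253 CPM in the library labelled KO and 292 CPM in that labelled WT. Gimap4, which in mice speeds the death of T cells, was highest there too, at 334 and 221 CPM. Gimap9 peaked in NK cells, at 119 CPM (6 UMIs) and 158 CPM (9 UMIs). Gimap7, whose human protein stimulates GTP hydrolysis by GIMAP2, was lowest in naive-like CD8 T cells of both libraries, at 23.3 CPM (3 UMIs) and 21.9 CPM (5 UMIs). Gimap8, which carries several GTP-binding domains in 1 protein, had no UMI in NK cells of either library. Of these highest and lowest gates, only Gimap4 in Foxp3-positive cells of the library labelled KO differed from its neighbour in the order beyond counting error (over effector CD8, 0.49, 0.0047 to 0.95). The top of Gimap3 stood over its neighbour by 0.03 (-0.51 to 0.53) and 0.39 (-0.38 to 1.15), that of Gimap4 in the library labelled WT by 0.07 (-1.004 to 1.22), and that of Gimap9 by 0.54 (-1.05 to 1.90) and 0.15 (-1.16 to 1.34).

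**Figure D2:**
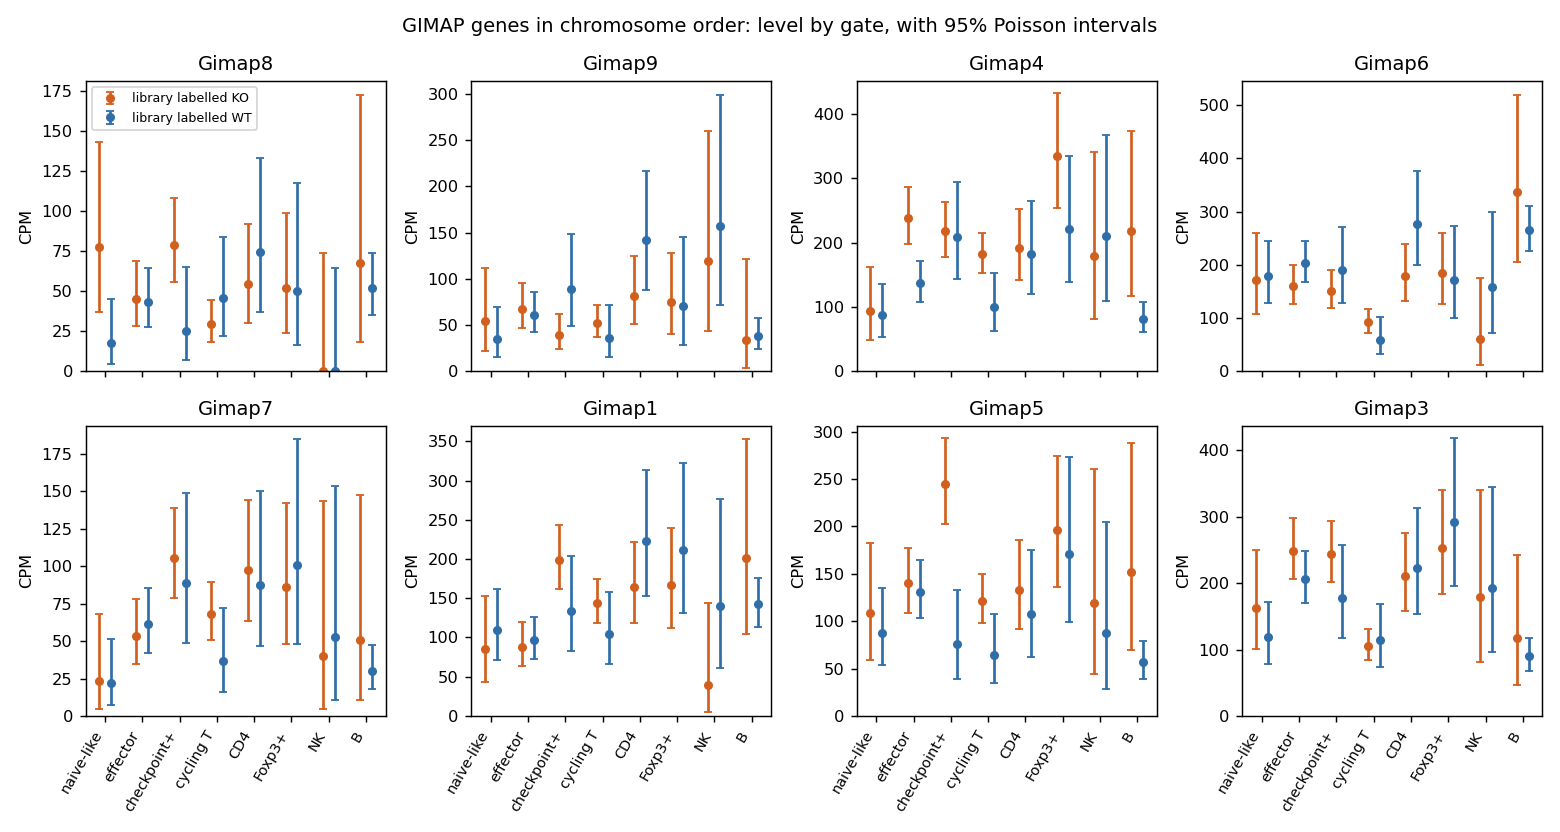
Level of each GIMAP gene (CPM, linear scale with its own axis per gene) in the 8 lymphocyte gates of the library labelled KO (left point) and labelled WT (right point), with 95% Poisson intervals, in chromosome order. Gimap7 is lowest in naive-like cells of both libraries, at 23.3 and 21.9 CPM, and Gimap9 is highest in NK cells, at 119 and 158 CPM, in each case within counting error of the neighbouring gate.

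Gimap6, which binds an ATG8 protein in human cells and is tied to autophagy, was higher in B cells than in CD8 T cells of both libraries. It was at 336 CPM (20 UMIs) in B cells of the library labelled KO and 156 CPM in CD8 T cells of that library, a log2 difference of 1.10 (0.36 to 1.78). In the library labelled WT the levels were 266 CPM (159 UMIs) and 194 CPM, a difference of 0.46 (0.14 to 0.77), and CD4 cells of that library were at 277 CPM, no further from B cells than counting error (0.06, -0.47 to 0.56). The median of all genes for B over CD8 T cells was itself at 0.24 under the KO and 0.31 under the WT label. The Gimap6 interval under the WT label includes that median. Gimap3 went the other way, with 118 CPM in B and 233 CPM in CD8 T cells in the library labelled KO (-0.98, -2.31 to 0.08) and 90.3 and 182 CPM in that labelled WT (-1.01, -1.48 to -0.57). As a share of GIMAP UMIs, Gimap6 made up 28.6% (18.4 to 40.6) in B cells and 14.2% (12.3 to 16.2) in CD8 T cells in the library labelled KO, and 35.1% (30.7 to 39.7) and 22.1% (19.3 to 25.0) in that labelled WT. At least 1.5-fold from CD8 T cells were 1 member higher and 2 lower in B cells of the library labelled KO (38.4% and 18.9% of all genes), and 1 higher and 5 lower in that labelled WT (36% and 13.3%).

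NK cells and pDC also had mixes of their own, on few molecules. Of the GIMAP UMIs of NK cells Gimap8 had 0 of 37 in the library labelled KO, which allows up to 8.11%, and 0 of 57 in that labelled WT (up to 5.26%), while it made up 5.72% and 3.82% in CD8 T cells, so its absence was not separable from the depth. Gimap9 made up 16.2% and 15.8% in NK cells and 4.92% and 6.68% in CD8 T cells, and its level over CD8 T cells was 1.14 (-0.36 to 2.34) and 1.43 (0.22 to 2.45) on the log2 scale. At least 1.5-fold from CD8 T cells were 1 member higher and 3 lower in NK cells of the library labelled KO (41.7% and 17.4% of all genes), and 3 higher and 0 lower in that labelled WT (40.2% and 15.2%).

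In pDC, Gimap1 made up 5 of 10 GIMAP UMIs (50%, 18.7 to 81.3) in the library labelled KO and 14 of 33 (42.4%, 25.5 to 60.8) in that labelled WT. Gimap6 made up 10% and 36.4%, Gimap9 20% and 15.2%, and Gimap5 20% and 6.06%. Gimap3, Gimap4, Gimap7 and Gimap8 were at 0 in both, which allows up to 30% of GIMAP UMIs in the library labelled KO and 9.09% in that labelled WT. Gimap3 and Gimap4 made up 21.1% and 18.9% of GIMAP UMIs in CD8 T cells in the library labelled KO and 20.8% and 15.5% in that labelled WT. Both CD8 shares lay above the limit of 9.09% in the library labelled WT and below that of 30% in the library labelled KO, where the zeros in pDC were not separable from the depth. Macrophages or monocytes did hold both, with Gimap3 at 22.4% and 21.1% and Gimap4 at 20.7% and 12.7% of their few GIMAP UMIs. All 8 members were at least 1.5-fold lower in pDC than in CD8 T cells of the same library, with 0 counts set to 3, against 23% of all genes in the library labelled KO and 13.3% in that labelled WT, and 0 were higher (32.8% and 45.6%).

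**Figure D3:**
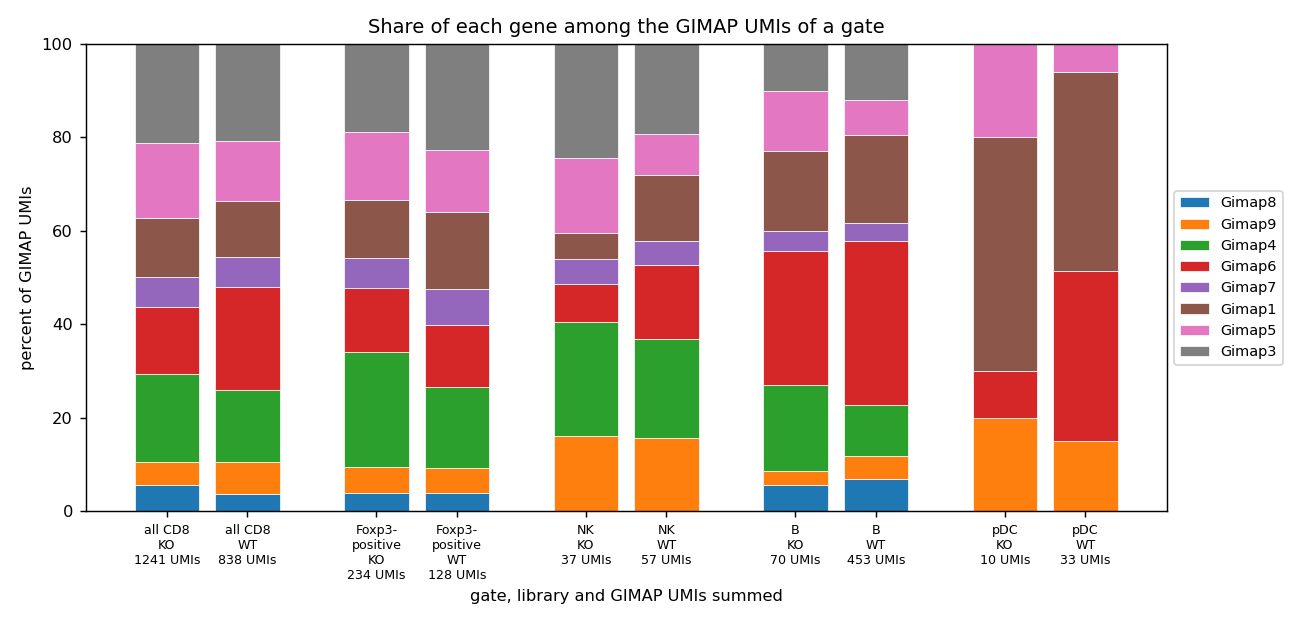
Share of each gene among the GIMAP UMIs of a gate (percent, stacked to 100), for the library labelled KO left of that labelled WT, with the number of GIMAP UMIs under each bar. Gimap6 takes 28.6% and 35.1% in B cells against 14.2% and 22.1% in CD8 T cells, and the pDC bars hold no Gimap3, Gimap4, Gimap7 or Gimap8.

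The second question was how the family moves with the state of CD8 T cells. Within each library the effector and checkpoint-positive gates were set over the naive-like gate, which they share as denominator. The GIMAP family sum was 1281 CPM in checkpoint-positive and 777 CPM in naive-like cells of the library labelled KO (log2 difference 0.72, 0.41 to 1.04), and 990 and 658 CPM in that labelled WT (0.59, 0.26 to 0.92). For effector cells the sums were 1043 CPM in the library labelled KO (0.43, 0.11 to 0.75) and 940 CPM in that labelled WT (0.51, 0.25 to 0.79). At least 1.5-fold higher in checkpoint-positive than in naive-like cells were 4 of 8 members in the library labelled KO (44.2% of all genes) and 3 of the 6 with at least 20 UMIs in that labelled WT (25.6%), with 0 lower (7.99% and 11.8%). The median member was at 0.88 and 0.43 and the median of all genes at 0.45 and 0.15. With a size factor in place of the gate total, the GIMAP family difference was 0.33 in the library labelled KO and 0.45 in that labelled WT. Over naive-like cells, effector cells had 3 members higher and 1 lower in the library labelled KO (26.6% and 11.9% of all genes), and 5 higher and 0 lower in that labelled WT (15.4% and 18.5%).

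Gimap7 and Gimap4 were higher in checkpoint-positive than in naive-like CD8 T cells of both libraries. Gimap7 was at 106 CPM in checkpoint-positive and 23.3 CPM (3 UMIs) in naive-like cells of the library labelled KO (2.18, 0.55 to 4.51), and at 88.8 and 21.9 CPM (5 UMIs) in that labelled WT (2.02, 0.46 to 3.85). Gimap4 was at 218 and 93.2 CPM in the library labelled KO (1.22, 0.36 to 2.22) and at 209 and 87.7 CPM in that labelled WT (1.26, 0.41 to 2.13). In effector over naive-like cells Gimap7 differed by 1.20 (-0.51 to 3.57; 26 and 3 UMIs) in the library labelled KO and 1.48 (0.12 to 3.19; 34 and 5 UMIs) in that labelled WT, and Gimap4 by 1.36 (0.50 to 2.35) and 0.64 (-0.09 to 1.43). Gimap6 in checkpoint-positive and naive-like cells stood nearly level, at 151 and 171 CPM (-0.18, -0.88 to 0.58) and at 190 and 180 CPM (0.08, -0.65 to 0.80). Gimap5, which holds T cells in a quiescent, living state in mice, was at 245 and 109 CPM in the library labelled KO (1.17, 0.37 to 2.08), but at 76.1 and 87.7 CPM in that labelled WT (-0.20, -1.37 to 0.90). The 2 gates differed in other ways too: the myeloid markers Lyz2, Cd68, Apoe, Fcgr3, Ctss, Ms4a7, S100a8 and S100a9 summed to 634 and 1694 CPM in checkpoint-positive and 1476 and 1548 CPM in naive-like cells, with 8 of 8 present in each, and ribosomal protein genes took 34.7% and 35.8% of checkpoint-positive and 47.0% and 42.0% of naive-like UMIs. The part of either in the GIMAP differences was not tested. Without cells that held a marker UMI of another lineage, the GIMAP family difference in the library labelled WT was 0.97, and with levels from counts thinned to 1000 UMIs it was -0.10.

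The cycling gate was drawn before the CD4, Foxp3-positive and CD8 gates, so it could hold T cells of each lineage. The part of lineage in the comparisons below was not tested. Cycling T cells held less GIMAP RNA per UMI than checkpoint-positive cells, but not less per cell. Their median was 7663.5 UMIs under the KO and 10509 under the WT label, against 3043.5 and 4046 in checkpoint-positive cells. A cycling cell held 7.63 and 5.86 GIMAP UMIs on average, and a checkpoint-positive cell 5.07 and 4.88. The GIMAP family sum in cycling T cells was 796 CPM in the library labelled KO, against 1281 CPM in checkpoint-positive cells (-0.69, -0.85 to -0.52), and 561 against 990 CPM in that labelled WT (-0.82, -1.17 to -0.47). At least 1.5-fold lower were 5 of 8 members in the library labelled KO (14.1% of all genes) and 5 of 7 in that labelled WT (17.2%), with 0 higher in either (24.4% and 32%). Gimap6 was at 92.3 CPM in cycling and 151 CPM in checkpoint-positive cells of the library labelled KO (-0.71, -1.21 to -0.22), and at 59.3 and 190 CPM in that labelled WT (-1.68, -2.74 to -0.70). Set over naive-like cells, Gimap6 was lower by 0.89 (interval -1.60 to -0.13) in the library labelled KO and by 1.60 (-2.62 to -0.67) in that labelled WT, whereas the family sum differed by 0.03 (-0.27 to 0.35) and -0.23 (-0.58 to 0.12). Over naive-like cells, cycling cells had 3 members higher and 3 lower in the library labelled KO (52.5% and 10.6% of all genes) and 0 higher and 1 of 5 lower in that labelled WT (42% and 17.1%).

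CD4 and Foxp3-positive T cells were set over all CD8 T cells of the same library. The GIMAP family sum in Foxp3-positive cells was higher than in CD8 T cells by 0.29 (0.08 to 0.49) in the library labelled KO and by 0.55 (0.27 to 0.82) in that labelled WT. In CD4 cells it was higher by 0.01 (-0.18 to 0.20) and by 0.58 (0.35 to 0.81). The median of all genes lay at 0.31 and 0.39 in Foxp3-positive and at 0.19 and 0.10 in CD4 cells. The Foxp3-positive difference under the KO label was thus no larger than that of the median gene. Ribosomal protein genes took 26.8% and 26.4% of Foxp3-positive and 40.4% and 43.1% of CD8 UMIs, and their part was not tested. Gimap1, which mature B and T cells need in mice, was at 223 CPM in CD4 and 106 CPM in CD8 T cells in the library labelled WT, against 164 and 139 CPM in that labelled KO. At least 1.5-fold higher than in CD8 T cells were 1 member in CD4 cells of the library labelled KO (22.9% of all genes) and 4 in that labelled WT (23.1%), and 1 (35.3%) and 5 (40.5%) in Foxp3-positive cells, with 0 lower in each (10.9%, 16.4%, 13.8% and 16.2%).

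The third comparison was of the library labelled KO with that labelled WT in the same gate. Pooled over all kept cells, 7 of 8 members were at least 1.5-fold higher in the library labelled KO (7.92% of all genes) and 0 lower (12.8%). In empty droplets 8 of 8 were higher (10%) and 0 lower (12.4%). The 8 lymphocyte gates made up 18.6% and 15.1% of kept cells, and other T cells 12.5% and 8.70%. The pooled levels rest on UMIs, and the libraries differed more by that measure. The 8 gates held 2384296 of 18194101 kept UMIs under the KO label and 2063588 of 27911553 under the WT label. The part of these shares was not tested. In bulk sums of this kind more cells of a type and more RNA per cell cannot be told apart, so gates were compared instead. In all CD8 T cells the GIMAP family sum was 1103 CPM (1241 UMIs in 356 cells) in the library labelled KO and 878 CPM (838 UMIs in 254 cells) in that labelled WT, a log2 ratio of 0.33 (0.20 to 0.46). The median of all 6741 genes measured was itself at 0.14, and with a median-of-ratios size factor, which takes out that shift, the family ratio was 0.20. At least 1.5-fold higher were Gimap4, Gimap5 and Gimap8, 3 of 8 members against 18.6% of all genes, and 0 were lower, against 9.02%. With the size factor 1 member stayed past that size and 0 were lower, and the share of higher among all genes past it was 50.2% in place of 67.4%. Once gates were drawn on counts thinned to 1000 UMIs, which left 239 and 91 cells, the family ratio was -0.046 (-0.22 to 0.14), so its direction depended on how the gate was drawn.

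Of the GIMAP genes in CD8 T cells, 6 lay above the median of all genes and 2 below it. Gimap8 was at 63.1 CPM (71 UMIs) in the library labelled KO and 33.5 CPM (32 UMIs) in that labelled WT, a log2 ratio of 0.91 (0.29 to 1.56). Gimap5 was at 178 and 112 CPM (0.67, 0.32 to 1.02), and Gimap4 at 208 and 136 CPM (0.61, 0.30 to 0.93). Gimap1 was at 139 and 106 CPM (0.39, 0.02 to 0.77), Gimap7 at 72.0 and 55.5 CPM (0.38, -0.14 to 0.90) and Gimap3 at 233 and 182 CPM (0.35, 0.07 to 0.64). Gimap6 was at 156 CPM in the library labelled KO and 194 CPM in that labelled WT (-0.31, -0.61 to -0.0030), and Gimap9 at 54.2 and 58.7 CPM (-0.11, -0.66 to 0.44), both below it. Gimap6 kept its sign under all 11 alternatives run, from -0.66 to -0.26, as did Gimap1, Gimap4, Gimap5 and Gimap8 on the other side.

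The mix of CD8 states differed between the libraries beside these ratios. Of the UMIs of the 3 states, checkpoint-positive cells gave 44.0% in the library labelled KO and 16.7% in that labelled WT, and naive-like cells 11.7% and 24.2%. With each of the 3 states given the same weight in both libraries (18.0% naive-like, 51.7% effector and 30.3% checkpoint-positive), the GIMAP family sum in CD8 T cells was 1068 and 904 CPM, a log2 ratio of 0.24. Summed myeloid markers were at 335 CPM in effector cells of the library labelled KO and 1208 CPM in that labelled WT, and their part in the ratio was not tested.

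By state, the GIMAP family ratio was 0.24 (-0.14 to 0.61) in naive-like CD8 T cells, where the median of all genes was -0.10, 0.15 (-0.03 to 0.33) in effector and 0.37 (0.12 to 0.63) in checkpoint-positive cells, where the median of all genes was 0.12. Gates on thinned counts turned the first 2 to -0.37 (-0.87 to 0.13) in naive-like and -0.29 (-0.52 to -0.06) in effector cells, and levels from thinned counts gave -0.18 (-0.77 to 0.40) in naive-like cells. In checkpoint-positive cells Gimap5 was at 245 CPM (118 UMIs) in the library labelled KO and 76.1 CPM (12 UMIs) in that labelled WT, a ratio of 1.68 (0.83 to 2.68). Gimap8 was at 78.8 and 25.4 CPM (4 UMIs; 1.63, 0.16 to 3.58), and Gimap9 at 39.4 and 88.8 CPM (-1.17, -2.25 to -0.07). Thus 2 of 8 members were at least 1.5-fold higher (26.4% of all genes) and 1 lower (15.7%) in that gate. This gate held 32 cells of the library labelled WT, with summed myeloid markers at 634 CPM in the library labelled KO and 1694 CPM in that labelled WT. Without any cell that held a marker UMI of another lineage, 101 and 22 cells remained, the sums were 1284 and 1416 CPM, and the family ratio was -0.14 (-0.43 to 0.15). With gates on thinned counts 58 and 4 cells remained and the ratio was -0.26 (-0.93 to 0.49).

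In effector cells Gimap4, at 239 CPM in the library labelled KO and 137 CPM in that labelled WT (0.81, 0.38 to 1.24), was the 1 member at least 1.5-fold higher (15.4% of all genes), with 0 lower (10.3%). Of the 5 members with at least 20 UMIs in naive-like cells 0 were past that size in either direction (10.2% higher and 23.3% lower among all genes). Gimap8 had 10 UMIs in naive-like cells of the library labelled KO and 4 in that labelled WT, too few to be counted.

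In cycling T cells the GIMAP family sum was 796 CPM in the library labelled KO and 561 CPM in that labelled WT, a log2 ratio of 0.50 (0.22 to 0.79), above 0 under all 11 alternatives run (0.32 to 0.96). Gimap5 was at 122 and 63.9 CPM (0.93, 0.11 to 1.86), Gimap7 at 68.2 and 36.5 CPM (0.90, -0.18 to 2.19), Gimap4 at 182 and 100 CPM (0.86, 0.20 to 1.58) and Gimap6 at 92.3 and 59.3 CPM (0.64, -0.23 to 1.62). Gimap8 had the opposite sign, at 29.4 and 45.7 CPM (-0.63, -1.77 to 0.61). That made 4 of 8 members at least 1.5-fold higher (20.3% of all genes) and 1 lower (12.9%), or 3 and 1 with the size factor. The gate held 21 cells of the library labelled WT, and summed myeloid markers were at 261 and 402 CPM.

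B cells also had a higher sum in the library labelled KO, at 1178 CPM (70 UMIs in 33 cells) against 758 CPM (453 UMIs in 294 cells) in that labelled WT, a GIMAP family ratio of 0.64 (0.25 to 1.00). Gimap4 was at 219 and 82.0 CPM (1.42, 0.41 to 2.32) and Gimap5 at 151 and 56.9 CPM (1.41, 0.17 to 2.50). With Gimap7, at 50.5 CPM (3 UMIs) and 30.1 CPM, they made 3 of 8 members at least 1.5-fold higher (19.9% of all genes), and 0 were lower (26.7%). Summed myeloid markers were at 908 CPM in B cells of the library labelled KO, with Ms4a7 at 0, and at 2835 CPM in that labelled WT, and their part was not tested. The ratio was above 0 under all 10 alternatives run, from 0.37 to 1.03. Excluding marker UMIs of another lineage, or the 5% of barcodes with the most UMIs, left the same 33 and 294 cells. These alternatives therefore could not move the ratio.

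CD4 cells did not follow. Their GIMAP family sum was 1112 CPM in the library labelled KO and 1317 CPM in that labelled WT, a log2 ratio of -0.24 (-0.51 to 0.03), where the median of all genes was 0.15. Gimap6 was at 180 and 277 CPM (-0.62, -1.26 to 0.02) and Gimap9 at 81.9 and 142 CPM (-0.79, -1.74 to 0.15). These were the 2 of 8 members at least 1.5-fold lower (8.64% of all genes), and 0 were higher (23.7%). For all genes past that size the higher share was 73.3%, or 58.1% with the size factor, under which the same count of members was lower.

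Foxp3-positive cells had sums of 1348 CPM in the library labelled KO and 1287 CPM in that labelled WT (GIMAP family ratio 0.07, -0.25 to 0.39). Of 7 members measured there 1 was at least 1.5-fold higher (16.7% of all genes), Gimap4 at 334 and 221 CPM (0.60), which was under that size with the size factor, and 0 were lower (15.2%). NK cells had sums of 737 and 998 CPM (-0.44, -1.08 to 0.18), and 0 of the 2 members measured were past 1.5-fold (24.2% higher and 20.2% lower among all genes). The direction in NK cells was not stable: 4 of 11 alternatives turned it, to 0.92 (0.28 to 1.54) without the 5% of barcodes with the most UMIs, 1.02 (0.28 to 1.75) with gates on thinned counts, 0.66 (-0.45 to 1.79) with levels from thinned counts and 0.35 as a mean over cells. An NK gate that allowed Cd3g, added after the data were seen, gave 797 and 995 CPM from 11 and 15 cells.

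T cells left out of the lineage gates gave a further reading, for which none of the alternatives was run. Their GIMAP family sum was 1115 CPM (1098 UMIs in 401 cells) in the library labelled KO and 831 CPM (971 UMIs in 380 cells) in that labelled WT, a ratio of 0.42 (0.30 to 0.55), and all 8 members lay above 0. The median of all genes in other T cells was 0.04. Gimap7 was at 51.8 and 27.4 CPM (0.92) and Gimap4 at 206 and 123 CPM (0.74). These 2 were at least 1.5-fold higher (11.9% of all genes), and 0 were lower (8.73%). Summed myeloid markers were at 1151 and 1301 CPM.

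**Figure D4:**
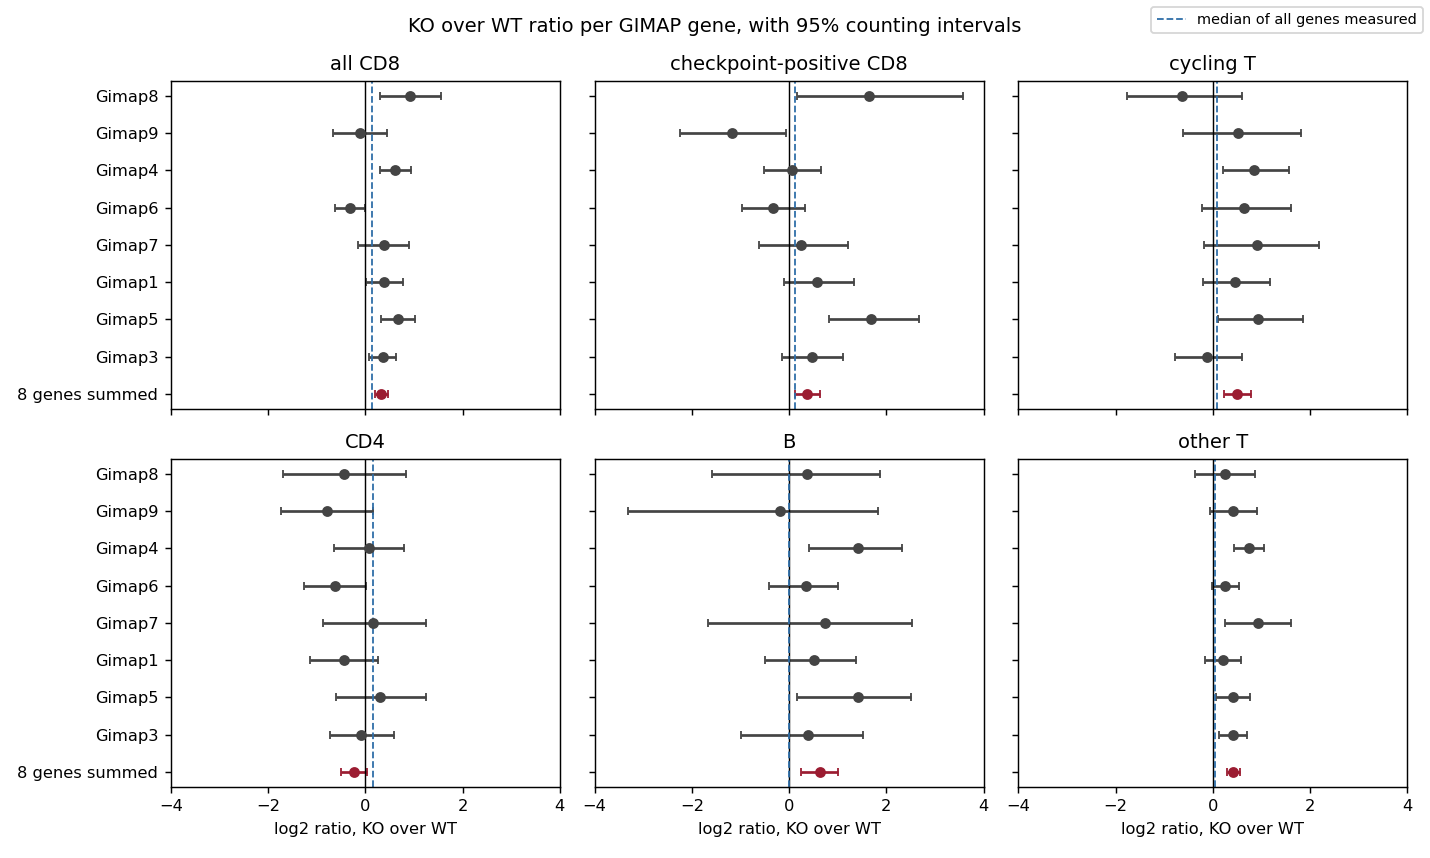
Log2 ratio, KO label over WT label, for each GIMAP gene in chromosome order and for the 8 genes summed (red), in 6 gates, with 95% counting intervals; the dashed line is the median of all genes measured in that gate. The sum lies at 0.33 in all CD8, 0.37 in checkpoint-positive, 0.50 in cycling T, -0.24 in CD4, 0.64 in B and 0.42 in other T cells.

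T cell receptor sequences gave a view inside the CD8 gates. A clone was a set of T cells of 1 library with the same TCR beta chain (TRB) CDR3 nucleotide sequence. Among CD8 T cells in the library labelled KO, 56 cells of clones with 2 or more cells held 1407 CPM of GIMAP transcripts and 49 cells with a TRB found once held 1001 CPM, a GIMAP family difference of 0.49 (0.23 to 0.75) on the log2 scale. In the library labelled WT, 6 clone cells held 2258 CPM and 68 other cells 1032 CPM, a difference of 1.13 (0.64 to 1.59). Gimap7 showed it in both, at 135 and 50.5 CPM in the library labelled KO (1.41, 0.35 to 2.60) and at 411 CPM (8 UMIs) and 63.2 CPM in that labelled WT (2.70, 1.30 to 3.96). Most clone cells of the library labelled KO were checkpoint-positive, 50 of the 56, while 31 of the 49 others were effector cells. Within the checkpoint-positive gate the difference was 0.57 (0.18 to 0.98; 50 and 11 cells) and within the effector gate 0.14 (-0.65 to 0.85; 6 and 31 cells). In the library labelled WT these differences were 0.58 (-0.14 to 1.26; 3 and 13 cells) and 1.30 (0.56 to 1.96; 3 and 46 cells).

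The largest clone of the library labelled KO, with 24 T cells, carried much of this, and was looked at after values by clone had been seen. Its 10 checkpoint-positive cells held 2449 CPM of GIMAP transcripts, against 1174 CPM in the other 112 cells of the gate (1.06, 0.74 to 1.37), and its 12 cycling cells 1387 CPM against 715 CPM in the other 66 (0.96, 0.66 to 1.24). Gimap7 was at 297 CPM in the clone and 88.2 CPM in the rest of the checkpoint-positive gate, and at 179 and 53.2 CPM among cycling cells. Gimap4 was at 569 and 186 CPM and at 324 and 163 CPM. Without this clone the difference between clone cells and others in CD8 T cells was 0.27 (-0.02 to 0.55). The KO over WT ratio of the GIMAP family without it was 0.25 (-0.01 to 0.51) in checkpoint-positive cells, 0.35 (0.06 to 0.65) in cycling T cells and 0.26 (0.13 to 0.39) in all CD8 T cells.

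Clones differed among themselves. The 8 clones of the library labelled KO with at least 3 cells in the CD8, cycling and other T gates, 88 cells in all, spanned 413 to 1675 CPM with a median of 1083 CPM. The clones of 24, 13, 7 and 21 cells at the top held 1675, 1614, 1426 and 1381 CPM. Lower were clones of 7, 3, 7 and 6 cells, at 786, 766, 735 and 413 CPM. Gimap6 had 33 UMIs in the largest clone and 1 UMI each in the clones at 786 and 735 CPM. Cells of a clone share their origin and their library and are not replicates.

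**Figure D5:**
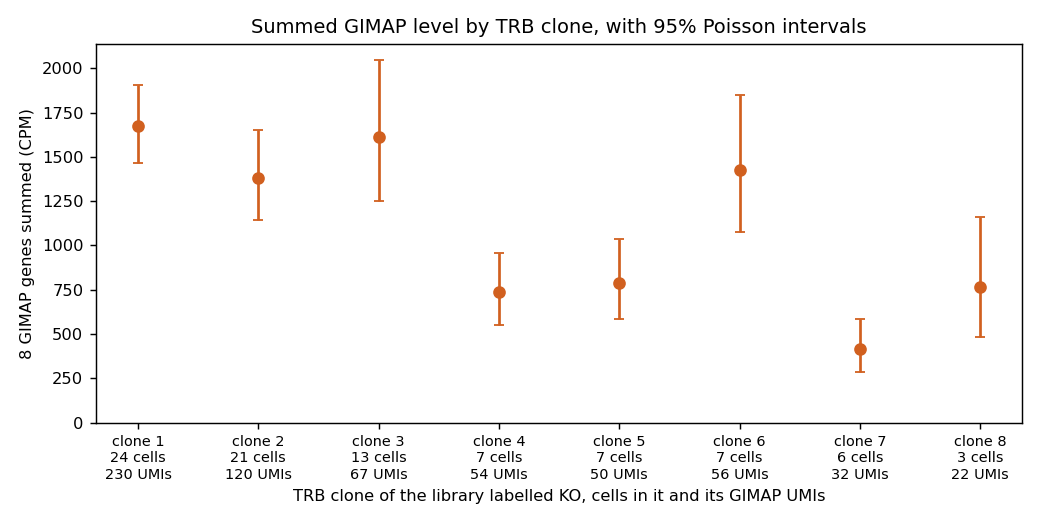
Summed GIMAP level (CPM) of the 8 TRB clones of the library labelled KO with at least 3 cells in the CD8, cycling and other T gates. They are ranked by cells in the clone, with 95% Poisson intervals and the number of cells and GIMAP UMIs under each. The points span 413 to 1675 CPM, and the 3 largest clones lie between 1381 and 1675 CPM.

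Genes whose level most resembled that of the GIMAP family were ranked by Pearson's r on log2(CPM + 10), as a description in which the points share libraries and depth. Over 30 points (15 gates in 2 libraries) the 10 closest of 9823 genes were Ltb (0.94), H2-Q6 (0.93), Ccdc88c and Ptprcap (0.92 each), Gem (0.90), and Lck, Rasal3, Sept1, Pdcd4 and Cd2 (0.89 each). That ranking follows the contrast of lymphocytes with other cells. Over the 16 lymphocyte points alone they were Ogt (0.83), Mxd4 (0.75), Fryl (0.73), Gpr174 (0.70), Rsrp1 (0.68), Neurl3, Arhgap45 and Ptpn18 (0.66 each), and Ube3c and Zgpat (0.65 each). Each member followed the sum of the other 7 with r from 0.77 (Gimap8) to 0.96 (Gimap6) over all 30 points, but from 0.20 (Gimap9) to 0.76 (Gimap7) over the lymphocyte points.

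Genes next to the cluster did not share its level. In the 8 lymphocyte gates the 5 nearest genes before it, AI854703, Zfp775, Repin1, Lrrc61 and Atp6v0e2, were between 0 and 6.71 CPM in both libraries. After it, Tmem176b was at 37.7 CPM in the library labelled KO and 49.4 CPM in that labelled WT, and Tmem176a at 43.2 and 45.6 CPM, both below their levels in macrophages or monocytes (185 and 185 CPM, and 99.9 and 90.4 CPM). Gpnmb was at 2.52 and 18.4 CPM and Malsu1 at 42.4 and 19.4 CPM, and Igf2bp3 at 1.26 CPM in the library labelled KO and 0 in that labelled WT.

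Lists of the pathways tied to the family were read in all CD8 T cells, where the median of all genes was 0.14 and 18.6% of all genes were at least 1.5-fold higher and 9.02% lower. Of 12 BCL2 family genes 1 was higher by that size and 1 lower, with a median of 0.25. Bcl2a1d, a survival gene, was at 144 CPM in the library labelled KO and 60.8 CPM in that labelled WT (1.25), Mcl1 at 303 and 451 CPM (-0.57), Bcl2a1b at 164 and 111 CPM (0.57), Bax at 151 and 127 CPM (0.25) and Bcl2 at 122 and 116 CPM (0.07). The lower one, named after its value was seen, was Bbc3, a death-inducing gene, at 18.7 and 34.6 CPM (-0.89). Of 11 measured ATG8 and autophagy genes 0 were higher and 3 lower (18.6% and 9.02% of all genes), with a median of -0.42. Sqstm1, a receptor for autophagy cargo, was at 188 and 367 CPM (-0.97), Map1lc3b at 304 and 408 CPM (-0.42), Gabarap at 250 and 276 CPM (-0.14) and Gabarapl2, the partner of GIMAP6, at 161 and 148 CPM (0.12). Named likewise, Atg16l1 at 9.78 and 21.0 CPM (-1.10) and Ulk1 at 24.0 and 37.7 CPM (-0.65) were the other lower genes. The CD8 T cells pool 3 states in unlike shares, with checkpoint-positive cells at 44.0% of UMIs under the KO and 16.7% under the WT label. In naive-like, effector and checkpoint-positive cells, in that order, the BCL2 family medians were -0.18, 0.05 and 0.07. Those of the autophagy genes were -0.50, -0.28 and -0.39, and those of all genes -0.10, 0.07 and 0.12.

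Of 16 naive and quiescence genes 1 was higher and 0 lower (18.6% and 9.02% of all genes), with a median of -0.37. Klf2, a factor of resting T cells, was at 480 CPM in the library labelled KO and 679 CPM in that labelled WT (-0.50), Il7r at 200.1 and 268 CPM (-0.42), Btg1 at 807 and 960 CPM (-0.25) and Btg2 at 403 and 369 CPM (0.13). The higher one, named after its value was seen, was S1pr1, which guides exit from lymph nodes, at 71.1 and 39.8 CPM (0.84). Of 16 measured activation genes 8 were higher and 2 lower (18.6% and 9.02% of all genes), with a median of 0.55, among them Xcl1 at 429 and 39.8 CPM (3.43), Tnfrsf9 at 75.6 and 12.6 CPM (2.59), Rgs16 at 148 and 31.4 CPM (2.23), Tox at 88.0 and 22.0 CPM (2.00), Tnfrsf4 at 52.5 and 18.9 CPM (1.48) and Irf4 at 16.0 and 55.5 CPM (-1.79). The 4 with the most UMIs were Nr4a1 at 657 and 466 CPM (0.50), Ccl4 at 601 and 492 CPM (0.29), Nr4a2 at 443 and 263 CPM (0.75) and Cd69 at 340 and 414 CPM (-0.28). Of 15 TCR signalling genes 3 were higher and 0 lower (18.6% and 9.02% of all genes), with a median of 0.36, Cd28 at 183 and 73.3 CPM (1.32), Lck at 283 and 197 CPM (0.52), Ptprc at 434 and 330 CPM (0.39), Lat at 328 and 298 CPM (0.14) and Skap1 at 191 and 183 CPM (0.06). The other higher genes, named after their values were seen, were Cd6 at 72.9 and 44.0 CPM (0.73) and Themis at 53.4 and 33.5 CPM (0.67). By state, in the order naive-like, effector and checkpoint-positive, the medians of the naive and quiescence list were -0.09, 0.15 and -0.60. Those of the activation list were -0.32, 0.38 and 0.37, and those of TCR signalling -0.09, 0.07 and 0.73. All genes had medians of -0.10, 0.07 and 0.12. The part of the mix of states in the pooled values was not tested.

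T cells with 1000 to under 1250 UMIs held 1481 CPM of GIMAP transcripts in the library labelled KO and 1095 CPM in that labelled WT, and those with 750 to under 1000 UMIs, just outside, 1558 and 1293 CPM. T cells with 8 to 10% mitochondrial UMIs held 1173 and 479 CPM (9 UMIs), and those just over the limit, with 10 to 15%, 805 and 880 CPM. Across the mitochondrial limit the 2 libraries thus ran in opposite directions, on 9 to 45 UMIs in each band and with overlapping intervals.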

How the data were processed

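The deposited matrices hold whole-number UMI counts per gene and barcode for all barcodes, written by Cell Ranger (version 3.1.0), per the file headers. The submitters' processing notes list mm10, R 3.6.1 and Seurat 3.2.0 without saying what each was used for. The filters, gates and sums above were applied to these counts, with no doublet caller. The members and lists were chosen with earlier results of these data known.

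Levels carry exact Poisson intervals, ratios exact conditional binomial intervals and shares Clopper-Pearson intervals at 95%. These cover counting error only, and no test was possible with 1 library per genotype. A gene was measured where both groups together held at least 20 UMIs, and counted as higher or lower at 1.5-fold by its point ratio, with 0 set to 3 counts. Thinning drew 1000 UMIs per cell with seed 1. On simulated Poisson counts for the comparison of all CD8 T cells (6448 genes, 175 changed), 96.4% of intervals held the true ratio, and 94.3% of those of changed genes did. Such draws follow the model of the intervals. They check the computation only and do not cover spread between cells, clones or mice.

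Named were the 8 members, the 4 genes of each list with the most UMIs and any whose nearer bound passed 1.5-fold, the 10 genes most like the family, 5 neighbours on each side, and Atpif1. The lists were BCL2 family, ATG8 and autophagy, naive and quiescence, T cell activation and T cell receptor signalling. Python 3.11.15, numpy 2.4.6, scipy 1.17.1, pandas 2.3.3 and matplotlib 3.10.9 were used. Alternatives covered the cell filters, lineage exclusion, thinning, scaling, the UMI minimum and clones. The clone left out and the NK gate allowing Cd3g were added after the data were seen.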

Additional observations from a re-analysis of the deposited data

Results flagged for a closer look

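In CD4 cells the GIMAP family ratio of KO over WT labels was -0.24, opposite in sign to the 0.33 of all CD8 T cells. In NK cells it was -0.44, on 10 and 13 cells, but 4 of 11 alternatives gave a positive ratio, up to 1.02 (0.28 to 1.75) with gates on thinned counts. The intervals of both include 0, each group is 1 library, and the difference from CD8 T cells was not tested.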

How the results depend on the processing

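Of 246 alternative values over 25 GIMAP results, 212 lay inside the interval as reported, 29 lay outside it, and 5 reversed a ratio whose interval excluded 0. KO over WT kept its sign under all alternatives run in cycling T (11), B (10), CD4 (10) and Foxp3-positive cells (10). Some of these could not differ. Leaving out the 5% of barcodes with the most UMIs removed no cell of the naive-like, effector, CD4, Foxp3-positive and B gates. Excluding marker UMIs of another lineage removed no B cell. Such unchanged values are part of the counts above. No paired analysis was possible because each genotype has 1 RNA library.

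Gates drawn on thinned counts gave KO over WT ratios of -0.046 in all CD8, -0.26 in checkpoint-positive, -0.37 in naive-like, -0.29 in effector, 0.96 in cycling T and 1.02 in NK cells, and -0.12 for Gimap3 in all CD8. Over naive-like cells they gave 0.89 (effector), 1.20 (checkpoint-positive) and 0.72 (cycling) in the library labelled KO, and 0.80, 1.09 and -0.61 in that labelled WT. Levels from thinned counts gave -0.18 in naive-like, 0.73 in checkpoint-positive, -0.55 in CD4 and 0.66 in NK cells, and under the WT label 0.10 for effector and -0.10 for checkpoint-positive over naive-like cells. Without cells holding a marker UMI of another lineage the ratios were -0.14 in checkpoint-positive and 0.41 in Foxp3-positive cells, and 0.97 for checkpoint-positive over naive-like cells under the WT label. At least 2000 UMIs and 800 genes gave 1.03 in B cells. NK cells gave 0.92 without the 5% of barcodes with the most UMIs and 0.35 as a mean over cells. With the size factor all CD8 gave 0.20, and under the KO label checkpoint-positive and cycling over naive-like cells gave 0.33 and -0.66, or 0.36 and -0.38 with totals free of mitochondrial and ribosomal protein genes. The causes were not tested. Of all genes in CD8 T cells, 1257 were higher and 608 lower, against 220 and 97 at a minimum of 100 UMIs and 3315 and 2701 at 1 UMI, by construction of the minimum. Of the lymphocyte gates, NK in both libraries, KO-labelled B and WT-labelled checkpoint-positive, cycling and Foxp3-positive cells held 10 to 33 cells each.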
